A study of Mus musculus with 23 samples.

Results

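The 45 cell cycle and mitosis genes described here were listed by symbol and looked up in the 3 deposited count tables, 1 for each of 3 experiments (A, B and C). All 45 were found among 41073 genes. By function, 13 are replication genes of S phase, 24 are mitosis genes, 4 are G1 cyclins and 4 are transcription factors. Bulk RNA sequencing was done on lung epithelial cells of wild type C57BL/6 mice, selected for the surface protein EpCAM and grown on porous inserts. The groups were freshly isolated cells (3 libraries, 1 per experiment), untreated cultures on the day of airlift (6 libraries, 2 per experiment), day 4 cultures treated with NTHi (7 libraries) and untreated day 4 cultures (7 libraries). At airlift the medium above the cells is removed, so that the cells meet air. NTHi is non-typeable Haemophilus influenzae, a bacterium that colonises the airways. The labels do not say whether NTHi was alive, its dose, or the age and number of mice, nor whether replicates came from separate animals. P-values therefore measure the spread between these libraries, which may be technical.

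In a dividing cell, D cyclins with Cdk4 or Cdk6 and E cyclins with Cdk2 relieve the block that Rb proteins place on E2F factors. E2F factors then switch on genes for DNA replication. Later in the cycle, B-Myb (encoded by Mybl2) and Foxm1 act with the MuvB complex on the genes of mitosis, many of which carry a short promoter element called the CHR, often near a CCAAT box bound by NF-Y. Epithelium of the adult lung divides rarely at rest and divides more after injury or when it is put in culture.

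The promoters of both large classes were read first, because replication and mitosis genes are known to be driven through different elements. Windows of 250 bases before to 50 after the gene start, from RefSeq on mouse build GRCm38.p6, were at hand for 35 of the 45 members. Both strands were searched for the CHR (TTTGAA), the CCAAT box (CCAAT) and E2F sites, read as TTGGCGC or as any of its variants TTCCCGC, then TTGCCGC and lastly TTCGCGC. These can share letters, since a CCAAT box on the opposite strand may run into TTGGCGC and E2F forms may overlap on opposite strands. Each gene was counted once per motif. A CHR lay in 15 of 20 mitosis genes with a window (75.0%) and in 1 of 11 replication genes (9.09%), Mcm2, beside 20.2% of all 27025 genes with a window. E2F sites lay in 8 of 11 replication genes (72.7%) and 3 of 20 mitosis genes (15%), beside 10.9% of all genes. The CCAAT box was in 18 of 20 mitosis genes (90%) and 8 of 11 replication genes (72.7%), beside 41.1% of all genes. All 15 mitosis genes with a CHR also had a CCAAT box, a pair found in 7.97% of all genes. A match describes these letters and does not show that a factor binds there.

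**Figure D1:**
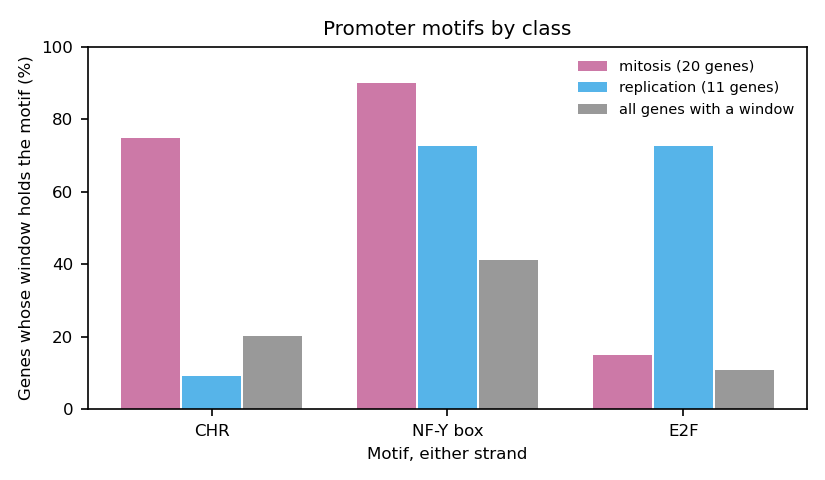
Share of genes, in percent, whose promoter window holds each motif on either strand, for 20 mitosis genes, 11 replication genes and all 27025 genes with a window; the NF-Y box is the CCAAT box. The CHR stands at 75.0% in mitosis genes and 9.09% in replication genes, and E2F sites at 15% and 72.7%.

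The contrast is shown in 6 windows: Cenpf, Ccnb2 and Top2a for mitosis, with the CHR and CCAAT box in capitals, and Mcm3, Mcm5 and Mcm6 for replication, with E2F sites and CCAAT boxes in capitals. Cenpf was shown as the largest rise at airlift, and Mcm5 as the largest among the Mcm helicase subunits. Rrm1 rose more than Mcm5 and also had an E2F site, but is not shown. Top2a and Mcm6 were shown for their level, Ccnb2 as a plain case with 3 CCAAT boxes near a CHR, and Mcm3 as a member called for NTHi. Each is written 5′ to 3′ on the strand of the gene, with GRCm38.p6 positions: Cenpf at chr1:189688037-189688336 (minus strand), Ccnb2 at chr9:70421505-70421804 (minus), Top2a at chr11:99024140-99024439 (minus), Mcm3 at chr1:20820263-20820562 (minus), Mcm5 at chr8:75109259-75109558 (plus) and Mcm6 at chr1:128359656-128359955 (minus).
Cenpf: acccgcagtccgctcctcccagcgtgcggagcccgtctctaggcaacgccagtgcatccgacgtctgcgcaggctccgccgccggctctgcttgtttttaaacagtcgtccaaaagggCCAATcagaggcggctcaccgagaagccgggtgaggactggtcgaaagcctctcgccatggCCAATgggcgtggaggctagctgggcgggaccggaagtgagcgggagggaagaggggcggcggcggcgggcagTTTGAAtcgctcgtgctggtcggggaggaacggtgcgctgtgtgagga
Ccnb2: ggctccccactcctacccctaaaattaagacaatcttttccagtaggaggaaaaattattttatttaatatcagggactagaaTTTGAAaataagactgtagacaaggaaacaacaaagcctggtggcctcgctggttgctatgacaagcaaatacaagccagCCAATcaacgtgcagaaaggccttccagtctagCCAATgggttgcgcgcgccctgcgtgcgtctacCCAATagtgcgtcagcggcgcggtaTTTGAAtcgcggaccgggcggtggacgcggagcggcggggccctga
Top2a: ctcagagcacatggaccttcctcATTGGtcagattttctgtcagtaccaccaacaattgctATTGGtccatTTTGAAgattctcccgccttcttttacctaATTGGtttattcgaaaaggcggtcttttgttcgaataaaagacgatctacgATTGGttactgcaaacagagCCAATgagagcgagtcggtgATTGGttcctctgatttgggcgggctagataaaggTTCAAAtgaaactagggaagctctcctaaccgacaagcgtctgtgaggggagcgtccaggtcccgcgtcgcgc
Mcm3: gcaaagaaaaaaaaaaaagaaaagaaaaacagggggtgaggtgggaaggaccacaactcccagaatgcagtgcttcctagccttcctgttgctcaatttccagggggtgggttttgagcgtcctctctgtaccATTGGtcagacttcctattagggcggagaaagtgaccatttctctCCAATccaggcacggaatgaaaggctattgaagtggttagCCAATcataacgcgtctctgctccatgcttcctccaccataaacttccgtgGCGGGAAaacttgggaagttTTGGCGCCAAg
Mcm5: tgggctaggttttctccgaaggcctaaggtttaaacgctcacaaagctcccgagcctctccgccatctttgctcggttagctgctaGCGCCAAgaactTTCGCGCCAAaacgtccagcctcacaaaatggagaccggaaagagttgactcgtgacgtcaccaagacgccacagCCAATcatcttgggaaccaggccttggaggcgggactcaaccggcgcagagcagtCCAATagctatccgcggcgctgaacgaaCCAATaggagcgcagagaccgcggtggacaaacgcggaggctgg
Mcm6: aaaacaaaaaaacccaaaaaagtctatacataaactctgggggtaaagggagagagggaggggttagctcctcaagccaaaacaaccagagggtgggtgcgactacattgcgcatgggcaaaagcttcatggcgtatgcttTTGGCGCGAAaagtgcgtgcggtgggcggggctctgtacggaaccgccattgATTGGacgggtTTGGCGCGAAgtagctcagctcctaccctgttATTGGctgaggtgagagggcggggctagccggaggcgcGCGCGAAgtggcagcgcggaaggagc
Over the first window of each mitosis gene, 14 of 19 CHR matches began within 60 bases before the start or after it. Only the letters TTTGAA were read as a CHR, and other spellings were not searched. The 5 mitosis genes whose windows lacked TTTGAA on both strands were Birc5, Bub1, Ccnb1, Cenpe and Nusap1. Their median log2 fold change at airlift over fresh isolation was 2.02, and that of the 15 with a CHR was also 2.02. The medians without and with a CHR were -0.75 and -0.55 for day 4 control over airlift, 1.18 and 1.26 for day 4 control over fresh isolation, and -0.09 and 0.02 for NTHi over day 4 control.

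Libraries held between 32323375 and 39081663 counts, and no member had fewer than 18 counts in a library, well above the filter on low counts. Levels are given as CPM, a gene's share of its library's total count after the totals were scaled by TMM (edgeR's trimmed mean of M values). Fresh libraries stood apart in makeup: 10 genes took 23.4% to 23.9% of their counts, against 7.72% to 9.95% in the others. A set of 6 epithelial markers summed to 8688 to 9279 CPM in fresh cells and 8208 to 10139 CPM at airlift. With NTHi the sum was 7870 to 8718 CPM, above the 6495 to 7720 CPM of day 4 controls. RNA of other cells was there too: 10 macrophage genes summed to 1036 to 1188 CPM in fresh cells, 757 to 856 at airlift, 218 to 829.1 with NTHi and 770 to 1617 in day 4 controls, and none of the 10 was at 0 in any library. For 8 mesenchyme genes the sums were 18.6 to 32.5, 29.3 to 79.6, 191 to 533 and 200 to 501 CPM in the same order, with Tcf21 at 0 in all NTHi libraries. For 6 basal cell genes they were 46.5 to 138, 25.6 to 105, 53.8 to 188 and 115 to 418 CPM. For 8 genes of centriole amplification in multiciliated cells they were 149 to 284, 58.5 to 114, 144 to 341 and 134 to 398 CPM. The part of these shifts in the members' levels was not tested. In experiment C, 2 day 4 libraries were least like their own group over all genes: NTHi replicate 3, with the lowest macrophage sum (218 CPM), and control replicate 1, the control with the lowest (770 CPM). Both had the highest mesenchyme sum of their group (533 and 501 CPM). Counts of members called for NTHi, and the members whose calls changed, are also given without them.

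Cells grown to airlift had more RNA of nearly the whole set than fresh cells, and the mitosis genes stood further above their fresh level than the replication genes did. Relative to fresh isolation, the mean of log2 CPM over the mitosis genes stood 2.02 ± 0.11 higher at airlift (SD, n = 6), and 1.35 ± 0.22 and 1.38 ± 0.14 higher in day 4 NTHi and day 4 control cultures (SD, n = 7 each). Over the replication genes the rise was 1.14 ± 0.12 at airlift, 0.58 ± 0.16 with NTHi and 0.69 ± 0.09 in day 4 controls. Every cultured library lay above every fresh library in both classes. In bulk RNA, fewer cells of a type and less RNA per cell cannot be told apart.

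**Figure D2:**
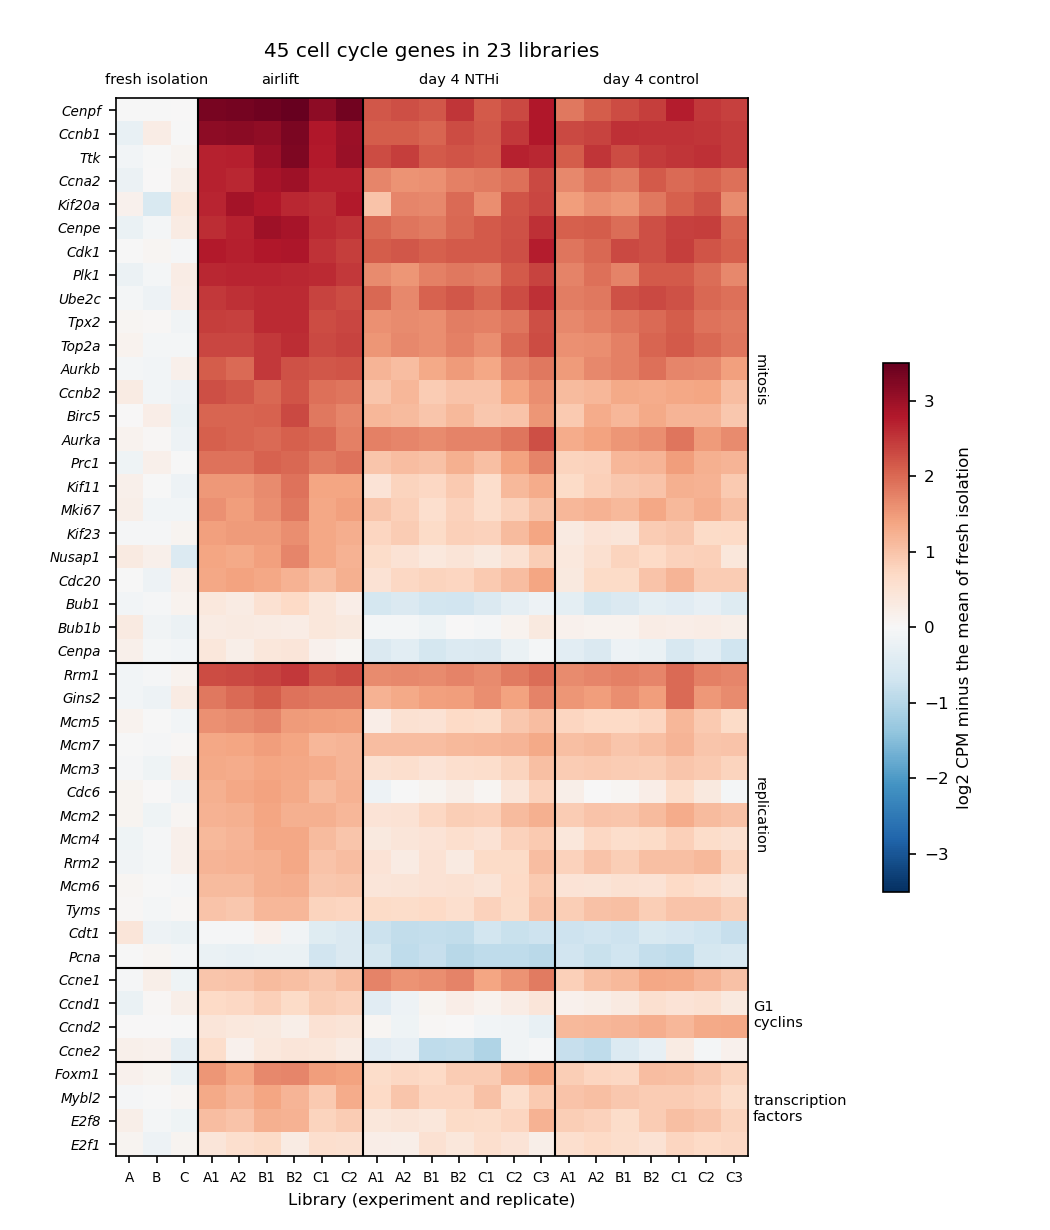
Log2 CPM of the 45 genes (rows, by class and by size of change at airlift) in the 23 libraries (columns, by group), minus each gene's mean in fresh isolation; red is higher and blue is lower. The airlift columns are reddest in the mitosis rows, while among mitosis and replication rows Pcna, Cdt1, Bub1, Bub1b and Cenpa stay pale or turn blue.

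In counts, 42 of 45 members were higher at airlift than in fresh cells (edgeR quasi-likelihood test, Benjamini-Hochberg adjusted p below 0.05), beside 37.9% of all 18302 genes tested. One member was lower, beside 36.7% of all genes. The median log2 fold change was 2.15 for mitosis genes, all 24 of which were called higher, and 1.27 for replication genes, of which 11 of 13 were. Over all genes tested it was 0.00. All 45 members passed the filter on low counts in each comparison. The members do not test a difference between the classes, since they were chosen with results known, and these medians are a description.

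The largest rises at airlift were in mitosis genes. Cenpf, a kinetochore protein, had 1.97, 1.98 and 2.01 CPM in the 3 fresh libraries and 17.3 to 22.3 CPM (median 20.4) at airlift, a log2 fold change of 3.37 ± 0.16 (SE, edgeR adjusted p = 2e-12). Ccnb1, cyclin B1, which takes cells into mitosis with Cdk1, had 2.88, 4.13 and 3.397 CPM in fresh cells and 24.1 to 33.4 CPM (median 29.8) at airlift, a log2 fold change of 3.09 ± 0.11. Neither gene's airlift libraries overlapped its fresh ones. Ttk, a spindle checkpoint kinase, followed at 2.93, with Ccna2 (cyclin A2) at 2.78, Kif20a and Cenpe (kinesins of spindle and kinetochore) at 2.72 each, Cdk1 at 2.70 and Plk1 (Polo kinase) at 2.62.

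Top2a, the topoisomerase that untangles sister chromatids, had 18.1, 15.9 and 15.8 CPM in fresh cells, 82.2 to 100 CPM (median 84.5) at airlift, 48.0 to 80.4 CPM (median 53.0) with NTHi and 50.4 to 74.2 CPM (median 60.6) in day 4 controls. Its airlift libraries lay above all others, and those of day 4 above the fresh ones. The log2 fold change was 2.41 ± 0.12 at airlift over fresh and -0.55 ± 0.08 for day 4 control over airlift (edgeR adjusted p = 1.71e-12 and 1.16e-05). Mki67, the nuclear protein Ki-67 that marks cycling cells, had 27.7, 22.5 and 22.5 CPM in fresh cells, 61.2 to 85.9 CPM (median 69.9) at airlift, 36.6 to 49.2 CPM (median 42.5) with NTHi and 49.9 to 61.2 CPM (median 53.6) in day 4 controls. No pair of these 4 groups overlapped; the highest day 4 control was at 61.15 CPM and the lowest airlift library at 61.19 CPM.

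Among replication genes, Rrm1, the large subunit of ribonucleotide reductase, rose most, with 23.3, 24.3 and 27.3 CPM in fresh cells, 114 to 139 CPM (median 123) at airlift, 78.3 to 96.0 CPM (median 79.7) with NTHi and 77.9 to 98.6 CPM (median 82.2) in day 4 controls. The log2 fold change at airlift over fresh was 2.34 ± 0.08 (edgeR adjusted p = 3.05e-14), and all airlift libraries lay above all others. Rrm2, the small subunit of the same enzyme, rose by 1.20 ± 0.11. Mcm6, a subunit of the replicative helicase, had 44.7, 42.7 and 41.6 CPM in fresh cells, 82.0 to 104 CPM (median 92.2) at airlift, 58.2 to 80.9 CPM (median 61.3) with NTHi and 59.2 to 69.3 CPM (median 60.5) in day 4 controls. Airlift again lay above both day 4 groups, which overlapped each other and lay above fresh cells. The 6 Mcm2 to Mcm7 helicase subunits moved by similar amounts at airlift, between 1.12 (Mcm6) and 1.58 (Mcm5).

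Some members did not move with their class. Pcna, the clamp that holds polymerases on DNA, had 190, 200 and 184 CPM in fresh cells, 121 to 163 CPM (median 161) at airlift, 97.2 to 125 CPM (median 103) with NTHi and 103 to 129 CPM (median 118) in day 4 controls. Every cultured library lay below every fresh one. Its log2 fold change was -0.33 ± 0.09 at airlift over fresh (edgeR adjusted p = 0.0023), but 0.15 and no longer called when libraries were scaled by their totals, which moved the median of all genes to 0.49. That 0.15 still lay below the median of all genes. Cdt1, which licenses origins with Cdc6, had 31.7, 20.6 and 19.97 CPM in fresh cells and 16.7 to 26.2 CPM (median 22.1) at airlift. These overlapped, with a log2 fold change of -0.16 ± 0.12 that was not called (0.33 and called higher by library totals). Cdc6 by contrast rose by 1.30 ± 0.14.

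In the mitosis class, 3 genes rose far less than the rest at airlift: Cenpa, the centromeric histone, by 0.29 ± 0.09, and the checkpoint proteins Bub1b and Bub1 by 0.32 ± 0.09 and 0.44 ± 0.10. The next lowest, Cdc20, rose by 1.29. Bub1b had 28.8, 21.4 and 20.2 CPM in fresh cells, 27.9 to 30.3 CPM (median 28.6) at airlift, 20.7 to 29.4 CPM (median 22.7) with NTHi and 25.1 to 27.9 CPM (median 26.7) in day 4 controls. Its fresh library of experiment A lay inside the airlift range and the other 2 below it. Without the fresh library of experiment C the change was 0.20 (edgeR adjusted p = 0.0553), and that of Cenpa without the fresh library of experiment B was 0.17 (edgeR adjusted p = 0.121). Bub1 and Cenpa then fell under their fresh levels by day 4, to 6.41 to 8.08 CPM (median 7.41) in day 4 controls against 9.20 to 10.6 CPM in fresh cells for Bub1, and to 9.82 to 14.1 CPM (median 12.2) against 14.98 to 17.9 CPM for Cenpa. Those differences were -0.42 ± 0.10 and -0.39 ± 0.09, or 0.06 and 0.08 by library totals.

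**Figure D3:**
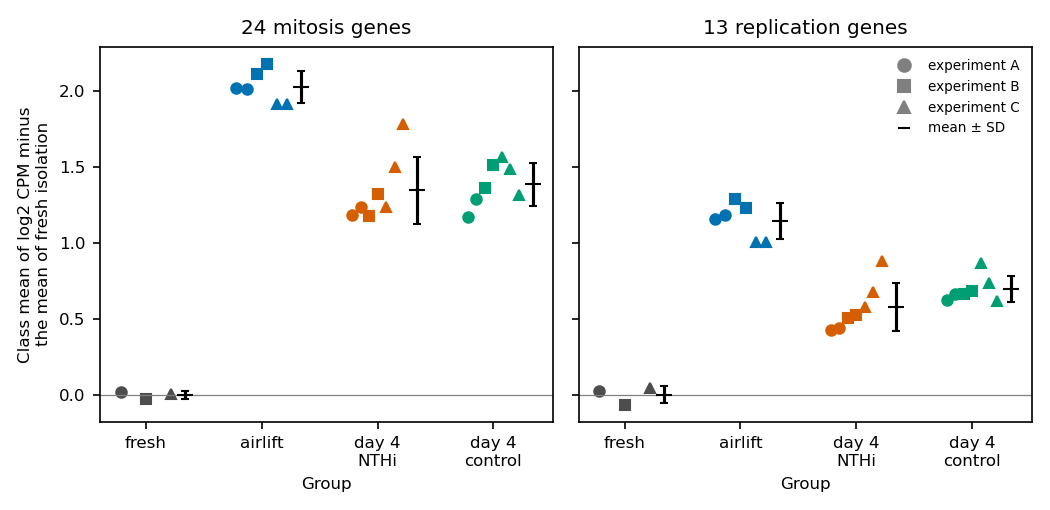
Mean of log2 CPM over the 24 mitosis genes (left) and the 13 replication genes (right) in each library, minus the mean of fresh isolation, by group; symbols mark experiments, and black bars the mean ± SD over libraries. Airlift is highest in both panels, at 2.02 for mitosis and 1.14 for replication, and the day 4 groups overlap.

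From airlift to day 4 without NTHi, most of the set went down again, though not to the fresh level. In day 4 controls 39 of 45 members were lower than at airlift (edgeR), beside 27.7% of all 18302 genes, and 1 was higher, Ccnd2, beside 26.9%. The median log2 fold change was -0.61 for mitosis and -0.44 for replication, against -0.02 over all genes. The deepest falls were in Cdc6 (-1.08), Cenpf (-1.04) and Kif20a (-0.98). By class, 23 of 24 mitosis genes and 12 of 13 replication genes were called lower, beside the same 27.7% of all genes.

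Set against fresh isolation, 38 members were higher in day 4 controls (beside 38.8% of all genes) and 4 were lower (beside 37.7%): Pcna, Cdt1, Bub1 and Cenpa. The comparisons share libraries, so the counts are not independent of each other. The full sequence of higher at airlift, lower again by day 4 and still above fresh was called in 21 of 24 mitosis genes and 9 of 13 replication genes, beside 1519 of all 18302 genes tested (8.3%). Cdc6 came closest to a full return among the replication genes that had risen: it had 7.81, 7.44 and 6.76 CPM in fresh cells, 15.8 to 19.6 CPM (median 17.9) at airlift and 6.92 to 11.2 CPM (median 8.46) in day 4 controls. Fresh and day 4 control libraries overlapped, with a difference of 0.22 ± 0.13 (edgeR adjusted p = 0.141). The gene was called higher when libraries were scaled by their totals, at 0.69 (edgeR adjusted p = 0.000158), and without the filter on low counts, at 0.28 (edgeR adjusted p = 0.0404).

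The 4 transcription factors all rose at airlift. Foxm1 had 8.10, 7.73 and 6.17 CPM in fresh cells, 18.5 to 23.8 CPM (median 20.7) at airlift, 11.5 to 18.6 CPM (median 13.4) with NTHi and 12.03 to 15.4 CPM (median 13.3) in day 4 controls. It rose by 1.54 ± 0.12 at airlift and was lower by day 4, at -0.64 ± 0.08 for day 4 control over airlift, with no overlap in either step. Mybl2 had 3.61, 3.67 and 3.88 CPM in fresh cells, 6.99 to 9.70 CPM (median 8.86) at airlift, 5.65 to 7.64 CPM (median 6.32) with NTHi and 5.80 to 7.77 CPM (median 6.94) in day 4 controls. Its changes were 1.24 ± 0.12 and -0.33 ± 0.08, with airlift and day 4 overlapping.

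E2f8, a repressor of the E2F family, had 3.43, 2.86 and 2.70 CPM in fresh cells, 5.14 to 7.03 CPM (median 6.17) at airlift, 3.89 to 6.995 CPM (median 4.69) with NTHi and 4.68 to 6.14 CPM (median 5.37) in day 4 controls. E2f1, an activator of the family, had 11.2, 9.38 and 11.2 CPM in fresh cells, 12.98 to 16.8 CPM (median 15.7) at airlift, 12.1 to 15.7 CPM (median 13.98) with NTHi and 14.97 to 17.9 CPM (median 16.95) in day 4 controls. Both were above the fresh range at airlift, by 1.05 ± 0.14 and 0.54 ± 0.09. Neither passed the test between airlift and day 4 control, at -0.18 ± 0.10 and 0.11 ± 0.07 (edgeR adjusted p = 0.143 and 0.181).

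The G1 cyclins each had a course of their own. Ccnd2, cyclin D2, had 108, 108 and 105 CPM in fresh cells, 123 to 153 CPM (median 141) at airlift, 90.1 to 111 CPM (median 99.9) with NTHi and 235 to 273 CPM (median 244) in day 4 controls. It was the 1 member called higher at both steps, by 0.40 ± 0.06 at airlift and by a further 0.82 ± 0.05 in day 4 controls, with no overlap between fresh, airlift and day 4 control libraries. Ccnd1, cyclin D1, had 77.0, 93.5 and 105 CPM in fresh cells, 146 to 164 CPM (median 156) at airlift, 68.7 to 122 CPM (median 100) with NTHi and 102 to 135 CPM (median 115) in day 4 controls. Unlike Ccnd2 it peaked at airlift, 0.78 ± 0.07 above fresh, and day 4 controls lay wholly under the airlift range.

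Ccne1, cyclin E1, had 4.74, 5.64 and 4.44 CPM in fresh cells, 9.54 to 10.7 CPM (median 9.98) at airlift, 12.8 to 17.3 CPM (median 15.2) with NTHi and 8.69 to 12.6 CPM (median 10.8) in day 4 controls. It rose by 1.04 ± 0.11 at airlift and the untreated cultures then overlapped (0.10 ± 0.08). Ccne2, cyclin E2, had 2.74, 2.72 and 1.94 CPM in fresh cells, 2.69 to 3.73 CPM (median 3.15) at airlift, 1.17 to 2.37 CPM (median 1.84) with NTHi and 1.31 to 2.95 CPM (median 2.01) in day 4 controls. Its airlift libraries overlapped the fresh ones, and the fall from there to day 4 controls was 0.68 on the log2 scale (SE 0.18, edgeR adjusted p = 0.00319). Without experiment A it was -0.44 and not called (edgeR adjusted p = 0.061).

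**Figure D4:**
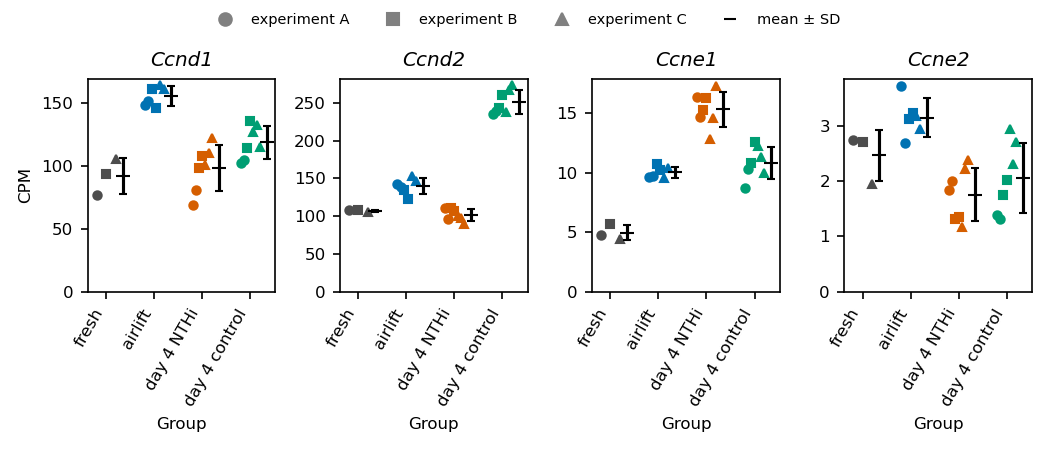
CPM of the 4 G1 cyclins in each library by group, on linear axes from 0; symbols mark experiments, and black bars the mean ± SD. Ccnd2 lies at 90.1 to 111 CPM with NTHi and 235 to 273 CPM in day 4 controls, and Ccne1 at 12.8 to 17.3 and 8.69 to 12.6 CPM.

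With NTHi the largest differences among the members were in G1 cyclins: Ccnd2 was lower and Ccne1 higher than in day 4 controls. Most genes of S phase and mitosis did not pass the test. Against day 4 controls, 3 of 45 members were higher with NTHi (edgeR), beside 20.1% of all 16337 genes tested, and 9 were lower, beside 20.4%. Neither share of the members exceeds that background, and 33 members were not called. The median log2 fold change was -0.14 for replication genes, of which 0 were higher and 4 lower, and -0.06 for mitosis genes, of which 2 were higher and 2 lower. Over all genes it was 0.00. Apart from Ccnd2 and Ccne1, every member lay within -0.38 and 0.28.

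Ccnd2 differed most. Its 7 NTHi libraries lay between 90.1 and 111 CPM and its 7 controls between 235 and 273 CPM, with a log2 fold change of -1.30 ± 0.05 (edgeR adjusted p = 8.5e-11). The NTHi range also lay below the airlift range and around the 3 fresh values, which was not tested. Within experiments the change was -1.20 ± 0.09 in A, -1.21 ± 0.08 in B and -1.44 ± 0.08 in C. Markers of other cells also differed with NTHi: 7 of 10 macrophage genes were called lower and 1 higher, 5 of 6 basal cell genes lower and 0 higher, 4 of 6 lymphocyte genes tested lower and 0 higher, and 2 of 5 endothelial genes tested lower and 1 higher. The basal cell sum was 53.8 to 188 CPM with NTHi and 115 to 418 CPM in controls. The lymphocyte sum was 9.55 to 25.6 CPM with NTHi and 24.5 to 46.4 CPM in controls, and the endothelial sum 10.2 to 17.2 CPM with NTHi and 21.96 to 40.4 CPM in controls. Of the mesenchyme genes 2 were higher and 2 lower, and of 6 epithelial markers 3 were higher and 2 lower. The part of these cells in the Ccnd2 result was not tested. Macrophage sums overlapped between the groups, but the mean of log2 CPM over the 10 macrophage genes did not. It was 2.25 to 3.94 with NTHi and 5.02 to 6.09 in controls.

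Ccne1 went the other way, with 12.8 to 17.3 CPM with NTHi and 8.69 to 12.6 CPM in controls, a log2 fold change of 0.50 ± 0.08 (edgeR adjusted p = 0.000176) and no overlap. By experiment it was 0.70 ± 0.13, 0.42 ± 0.12 and 0.41 ± 0.13 in A, B and C, and was not called within C (edgeR adjusted p = 0.0777). Ccnd1 was lower by 0.29 (SE 0.06) with NTHi, though its 68.7 to 122 CPM overlapped the controls' 102 to 135 CPM. Experiments differed in Ccnd1 level: NTHi libraries had 68.7 and 81.0 CPM against controls at 102 and 104 CPM in experiment A, while in experiment C they had 100, 110 and 122 CPM against 127, 132 and 115 CPM. Ccne2 was not called, at -0.21 ± 0.18.

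**Figure D5:**
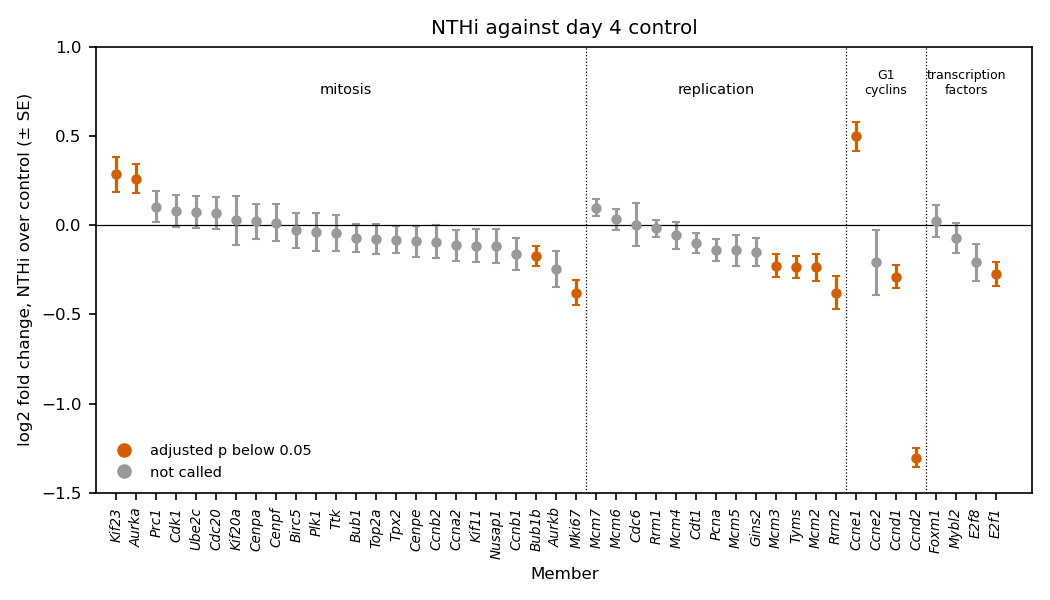
Log2 fold change of each member, NTHi over day 4 control, with its SE from edgeR (14 libraries), ordered by size within class; orange marks an adjusted p below 0.05. Ccnd2 at -1.30 and Ccne1 at 0.50 stand outside the band from -0.38 to 0.28 that holds the other 43 genes.

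Of the mitosis genes, Mki67 alone had NTHi libraries (36.6 to 49.2 CPM) all below the controls (49.9 to 61.2 CPM), a change of -0.38 ± 0.07 (edgeR adjusted p = 0.000405). Not called were 20 of the 24 mitosis genes, among them Top2a (-0.08), Cdk1 (0.08), Ccnb1 (-0.16) and Plk1 (-0.04). Of the 24, 15 were negative, beside 8173 of all 16337 genes tested. Aurka, the kinase of centrosome and spindle poles, was higher, with 13.7 to 20.5 CPM (median 14.5) with NTHi and 10.6 to 15.96 CPM (median 12.6) in controls, 0.26 ± 0.08 (edgeR adjusted p = 0.0196). Kif23, a kinesin of cytokinesis, had 21.4 to 35.1 CPM (median 23.97) with NTHi and 16.8 to 25.8 CPM (median 21.2) in controls, 0.28 ± 0.10 (edgeR adjusted p = 0.0281). Bub1b was lower by 0.17 (SE 0.06, edgeR adjusted p = 0.0247). The ranges of these 3 overlapped, and the calls of Kif23 and Bub1b were lost under 10 and 6 other settings.

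The 4 replication genes called were all lower with NTHi and all overlapped their controls. None of the 4 was called without experiment B (edgeR adjusted p = 0.0948 for Mcm2, 0.119 for Mcm3, 0.0516 for Rrm2 and 0.0698 for Tyms), and without experiment A only Rrm2 was. Rrm2 had 11.7 to 20.3 CPM (median 13.7) with NTHi and 16.5 to 21.0 CPM (median 19.0) in controls, -0.38 ± 0.09 (edgeR adjusted p = 0.00364). Tyms, thymidylate synthase, had 12.1 to 16.1 CPM (median 12.97) with NTHi and 14.7 to 16.7 CPM (median 16.2) in controls, -0.23 ± 0.06. Both enzymes make precursors of DNA. Mcm3 had 30.1 to 44.6 CPM (median 32.6) with NTHi and 37.4 to 42.7 CPM (median 39.9) in controls, and Mcm2 had 29.1 to 49.9 CPM (median 37.1) with NTHi and 38.9 to 51.7 CPM (median 42.5) in controls. Their changes were -0.23 ± 0.07 and -0.24 ± 0.08, while the other helicase subunits, Mcm4 to Mcm7, lay between -0.14 and 0.10 and were not called. Among transcription factors E2f1 was lower, 12.1 to 15.7 CPM with NTHi and 14.97 to 17.9 CPM in controls, by 0.27 (SE 0.07, edgeR adjusted p = 0.0045).

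By experiment, the median member change with NTHi was -0.12 in A, -0.19 in B and 0.01 in C, and 33, 40 and 20 of 45 members were negative. Fitted within each experiment, 3, 1 and 0 members were called higher and 8, 7 and 1 lower. Of all genes tested there, 9.63%, 9.05% and 8.3% were called higher and 10.8%, 9.38% and 7.55% lower. The sign was the same in all 3 experiments for 9 of 13 replication genes and 6 of 24 mitosis genes. Shares of signs over all genes were not computed by experiment, so these counts of signs are a description alone. A test of the difference between experiments called 0 of 45 members and 0 of 16337 genes (edgeR interaction, with 3 members and 675 genes at an unadjusted p below 0.05), and DESeq2's likelihood ratio test called 0 members and 9 genes. The 3 members were Cenpa, Aurkb and Ccne2, named after their values were seen.

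NTHi replicate 3 of experiment C bears on these counts. It had the highest sums of its group, 578 CPM over mitosis genes and 611 CPM over replication genes, where the other 6 NTHi libraries had 380 to 470 and 483 to 554 CPM. Without it, 14 members were lower with NTHi rather than 9, and without control replicate 1 of experiment C as well, also 14. E2f8, not called with all libraries, was then lower by 0.30 on the log2 scale (edgeR adjusted p = 0.0116), or by 0.28 without both (edgeR adjusted p = 0.0193), and Pcna was lower by 0.15 without both (edgeR adjusted p = 0.0485). Kif23 was 0.22 and not called without the NTHi library (edgeR adjusted p = 0.0552), but 0.25 and called without both (edgeR adjusted p = 0.0193). Aurka was 0.20 and 0.24, and Rrm2 -0.45 in each case, all called. The higher count was 3 and fell to 1 without experiment A, when the lower count was 4; without experiment B it was also 4.

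Other genes of the same pathways gave the wider view. Counts are given beside the shares of all genes tested that were called higher and lower: 37.9% and 36.7% at airlift over fresh, 26.9% and 27.7% in day 4 controls over airlift, 38.8% and 37.7% in day 4 controls over fresh, and 20.1% and 20.4% with NTHi over day 4 controls. The gene named for each count is the called one with the smallest p. Of 20 other replication genes 18 were higher and 2 lower at airlift than in fresh cells (edgeR), with Uhrf1, which copies DNA methylation, at 1.84 ± 0.11 and Mcm10, a replisome factor, at -1.64 ± 0.14. In day 4 controls 0 were higher and 19 lower than at airlift, with Gmnn, the inhibitor of Cdt1, at -0.76 ± 0.09. With NTHi 0 were higher and 2 lower, with Pola1, a polymerase subunit, at -0.40 ± 0.06. Of 24 other mitosis genes 22 were higher and 2 lower at airlift, with Tacc3, a spindle protein, at 1.79 ± 0.08 and Pttg1, securin, at -0.89 ± 0.08. In day 4 controls 0 were higher and 20 lower than at airlift, with Tacc3 at -0.66 ± 0.06, and with NTHi 2 were higher, with the kinase Nek2 at 0.32 ± 0.09, and 0 lower. The median log2 fold change at airlift over fresh was 1.16 for the 20 replication genes and 1.64 for the 24 mitosis genes. For day 4 controls over airlift the medians were -0.49 and -0.44, so the larger fall of mitosis genes among the members was not seen in these lists. Set against fresh isolation, day 4 controls had 15 higher and 2 lower of the 20 (Gins1, a helicase partner, at 1.73 ± 0.16 and Mcm10 at -2.10 ± 0.14) and 20 higher and 2 lower of the 24 (Bub3, a checkpoint protein, at 1.17 ± 0.06 and Hmgb2, a chromatin protein, at -0.84 ± 0.08).

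Kinases and partners of the G1 step moved in both directions. Of 16 such genes 9 were higher and 1 lower at airlift (edgeR), with Tfdp1, the partner of E2F factors, at 1.56 ± 0.06 and E2f2 at -1.30 ± 0.09. In day 4 controls 5 were higher and 7 lower than at airlift, with Cdk4 at 0.55 ± 0.05 and Rbl1, an Rb relative, at -0.43 ± 0.07, and against fresh isolation 11 were higher and 3 lower, with Cdk4 at 1.74 ± 0.07 and E2f2 at -1.59 ± 0.09. With NTHi 4 were higher and 5 lower, beside 20.1% and 20.4% of all genes. Lin9, a MuvB subunit, had 8.64 to 11.6 CPM (median 9.31) with NTHi and 6.79 to 8.63 CPM (median 7.25) in controls, 0.36 ± 0.07. E2f2 had 4.86 to 7.08 CPM (median 5.87) with NTHi and 8.90 to 10.7 CPM (median 9.79) in controls, -0.73 ± 0.09. Neither pair of ranges overlapped.

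Inhibitors of the kinases were lower with NTHi in 5 of 7 cases and higher in 0, beside 20.4% and 20.1% of all genes. Cdkn2a, the locus of p16 and p19, had 2.34 to 4.73 CPM (median 3.52) with NTHi and 5.11 to 9.89 CPM (median 7.79) in controls, -1.10 ± 0.12 (edgeR adjusted p = 4.03e-06), with no overlap. In untreated cells it had 0.485 to 0.776 CPM when fresh, 0.632 to 1.48 CPM at airlift and the 5.11 to 9.89 CPM above at day 4, a change of 2.81 ± 0.18 for day 4 control over airlift. At airlift 5 inhibitors were higher and 2 lower than in fresh cells, with Cdkn2b (p15) at 1.57 ± 0.10 and Cdkn1c (p57) at -1.34 ± 0.11. In day 4 controls 3 were higher and 2 lower than at airlift, with Cdkn1b (p27) lower at -0.64 ± 0.05, and against fresh isolation 3 were higher and 3 lower, with Cdkn2b at 2.17 ± 0.10 and Cdkn1b at -0.36 ± 0.06. All of these genes and the members were tested in the same fits, and the lists were drawn up with earlier results known.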

How the data were processed

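RNA was sequenced from 23 libraries, grouped by their labels. The files the authors deposited are raw counts, whole numbers with no normalisation. The submitters' processing notes name STAR, DESeq2 and build GRCm39. How reads were assigned to genes, and whether strand was used, is not given in the sources used here. Of 41098 lines per table, 25 broken fragments were left out (0 to 0.0822% of counts). Among counts below 20, 69.3% to 74.9% were even, as when both reads of a pair are counted, so independent fragments may be fewer; a fit on halved counts was an alternative. In a GRCm38.p6 annotation 18 of 45 members overlap another gene (among them Ccnd1, Ccnd2, Ccne2, E2f1, E2f8, Foxm1, Aurka and Cdc20), and Ccnb1 and Tyms have named copies. Such reads may be shared.

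Tests were run with edgeR 4.0.16 (R 4.3.3): filterByExpr with a minimum count of 10, TMM scaling, and a quasi-likelihood F-test of group beside experiment, Benjamini-Hochberg adjusted over all genes tested, threshold 0.05. The 14 day 4 libraries gave the NTHi comparison and 16 untreated libraries the others. Each SE was derived from the log2 fold change and F. TMM factors were 0.741 to 0.770 in fresh libraries and 0.983 to 1.10 in others. Replicate pairs differed beyond sampling noise (chi-square per degree of freedom 2.97 to 86.3). The fits were first tested on simulated counts, with changes placed in genes drawn from all those tested. For NTHi over control, 64.2% of log2 changes of 0.5, 89.2% of those of 1 and 100% of those of 2 were recovered. For airlift over fresh isolation the shares were 47.7%, 72.3% and 93.7%. Changes smaller than 0.5, such as most of those seen with NTHi, were not simulated. Alternatives were other scaling, DESeq2 1.42.0, no filter, other terms, 1 fit of all libraries, and leaving out libraries and experiments.

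The members and lists were chosen with earlier results of these data known. Values by group are given for the 3 replication and 3 mitosis genes with the highest mean CPM, all 4 G1 cyclins and 4 transcription factors, members called for NTHi, and called members opposite to their class; of other lists, the called gene with the smallest p in each direction. Other members stand as examples.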

Additional observations from a re-analysis of the deposited data

Results flagged for a closer look

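Of 66 groups of libraries checked for 1 value far from the rest (20 members given with values by group, and both class means), 5 were marked; chance marks about 1 in 20 groups. Of these, 3 lay in NTHi replicate 3 of experiment C: Aurka at 20.5 CPM, where the other NTHi libraries had 13.7 to 15.8 CPM, E2f8 at 6.995 CPM against 3.89 to 4.99 CPM, and Rrm2 at 20.3 CPM against 11.7 to 15.3 CPM. That library also had the lowest macrophage sum and the highest mesenchyme sum of its group, whose part in these values was not tested. Pcna was at 125 CPM in NTHi replicate 1 of experiment A, where the others had 97.2 to 109 CPM. Rrm1 was at 98.6 CPM in control replicate 1 of experiment C, where the other day 4 controls had 77.9 to 84.3 CPM.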

How the results depend on the processing

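Counts of called members and class medians kept their direction except as follows. Scaling by library totals moved the median of all genes to 0.49 for both comparisons with fresh isolation. It gave medians of 1.75 (replication) and 2.63 (mitosis) at airlift and 1.36 and 2.10 in day 4 controls, 0 members lower at airlift, 1 lower in day 4 controls, and 1 higher with NTHi. Under it the signs of Pcna (0.15) and Cdt1 (0.33) at airlift, of Cenpa (0.081), Bub1 (0.057) and Ccne2 (0.16) in day 4 controls over fresh isolation, and of Mcm6 (-0.026) and Foxm1 (-0.035) with NTHi turned. Broader classes added the members Foxm1 and Mybl2 to the mitosis genes, and Ccne1, Ccne2, E2f1 and E2f8 to the replication genes. They gave a mitosis median of 1.41 in day 4 controls over fresh isolation. The added Foxm1 and Mybl2, at 0.90 and 0.91, lay below the median of 1.62 without them. The cause of the shifts under library totals was not tested.

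Leaving out 1 library or experiment gave 1 to 3 members higher and 4 to 14 lower with NTHi, 1 to 2 lower at airlift over fresh isolation, 1 to 2 higher in day 4 controls over airlift, and a replication median of 0.82 to 1.0 in day 4 controls over fresh isolation. The mitosis median with NTHi ranged from -0.13 to 0.0033. The 4 lower calls came without experiment A or B, and 14 without NTHi replicate 3 of experiment C. Leaving out both libraries that stand apart, chosen after seeing the data, also gave 14.

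Small values that were not called with all libraries turned sign. Leaving out 1 library or experiment, NTHi over control ranged from -0.021 to 0.063 for Mcm6, -0.043 to 0.0079 for Rrm1, -0.48 to 0.0067 for Ccne2 and -0.12 to 0.081 for Foxm1. Airlift over fresh isolation ranged from -0.35 to 0.062 for Cdt1, and day 4 control over airlift from -0.12 to 0.091 for Tyms. Cdt1 at airlift was called lower without experiment B (-0.35, edgeR adjusted p = 0.0356). By library totals it was called higher (0.33, edgeR adjusted p = 0.0256). Tyms, day 4 control over airlift, was 0.0026 without the filter on low counts and 0.00067 with the replicate block. Without both libraries that stand apart, Mcm6 and Foxm1 with NTHi were -0.00067 and -0.021.

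For NTHi, the calls of Ccnd2, Ccne1 and Mki67 held under all 26 alternatives that refit them. Those of Kif23 were lost under 10, Bub1b under 6, Mcm2 under 4, Aurka, Mcm3 and Tyms under 2 each, and Rrm2, E2f1 and Ccnd1 under 1 each. Calls not made with all libraries were gained for Pcna under 4 and E2f8 under 3, all lower; for Pcna they were scaling by library totals, leaving out NTHi replicate 1 of experiment A or control replicate 1 of experiment C, and leaving out both libraries that stand apart. Whether replicate numbers pair the libraries was not settled. Deviations of same-numbered NTHi and control libraries correlated at 0.16 in experiment A, 0.29 in B, and -0.69, 0.27 and -0.50 in C. Each negative value involves a library that stands apart. With the replicate block NTHi gave 3 members higher and 8 lower, and day 4 control over airlift 1 higher and 38 lower. Members had at least 18 counts per library; whether depth limits their calls was not tested. Comparisons with fresh cells rest on 3 fresh libraries.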
